A study of Mus musculus with 6 samples.

Results

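The keratin-associated protein genes (*Krtap*) were examined in skin from the dorsal neck of YAP2-5SA-∆C mice and their wild type littermates. Members were all protein-coding genes of the mouse annotation GENCODE M21 (genome build GRCm38) whose symbol starts with *Krtap*. There were 57 such genes, of which 53 had a row among the 26579 genes of the count table and 52 passed the filter on low counts, among 15102 genes tested. The remaining 4 of the 57 (*Krtap10-10*, *Krtap13*, *Krtap28-10* and *Krtap28-13*) were not analysed here.

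RNA-Seq had been carried out on whole skin biopsies of female mice aged 33 days, 3 of them wild type and 3 transgenic, after the fur was trimmed. The YAP2-5SA-∆C mice carry a transgene for a mutant of the transcriptional cofactor YAP, labelled YAP2-5SA-∆C, that is expressed in the basal keratinocytes of the epidermis, and the wild type mice do not carry it. The libraries are called WT1 to WT3 and TG1 to TG3, by genotype and by the replicate number in the labels. Beyond separate libraries of separate mice, the labels do not say how the replicates were obtained, so that p-values measure the spread between these libraries. Values are CPM, counts relative to library size, after TMM normalization, which scales each library by its total and its overall composition, and lists of 3 values follow the replicate numbers 1, 2 and 3.

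Keratin-associated proteins form the matrix in which the keratin filaments of the hair shaft are embedded, and their cysteines are crosslinked to each other and to the hair keratins by disulfide bonds. Their genes are small, mostly without introns, sit in clusters and are switched on in differentiating cells of the hair cortex and cuticle during the growth phase of the hair cycle. They are grouped by the amino acids that dominate the protein into high-sulfur, ultrahigh-sulfur and high glycine-tyrosine classes, and each class holds numbered subfamilies. In this set, 21 members were high-sulfur by their subfamily number (19 with a row), 17 were ultrahigh-sulfur, 15 were high glycine-tyrosine and 4 had a number outside these classes (2 with a row, *Krtap31-1* and *Krtap31-2*).

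The composition that sets the class can be read in the coding sequence. Windows of 30 bases with the most cysteine codons, or glycine and tyrosine codons, are shown because the classes, which differed in TG2, are defined by these residues. *Krtap8-1* and *Krtap1-5* had the highest wild type CPM per kb of exon in the high glycine-tyrosine and high-sulfur classes, and *Krtap9-3* had the highest mean CPM of subfamily 9. *Krtap31-1* is 1 of 3 genes that follow each other among the members on chromosome 11 and had a low level in WT1. The sequences are of the gene strand, 5′ to 3′, from GENCODE M21 transcripts on GRCm38. The capitals mark glycine and tyrosine codons in *Krtap8-1* (chr16:89487764-89487793, minus strand), and cysteine codons in *Krtap1-5* (chr11:99580603-99580632, minus strand), *Krtap9-3* (chr11:99597677-99597706, minus strand) and *Krtap31-1* (chr11:99908096-99908125, plus strand).
Krtap8-1: GGCTATGGCcttGGCTATGGCTACaatGGC
Krtap1-5: TGCTGCcgcccagccTGTTGCTGCtacTGC
Krtap9-3: TGCTGCcgcccagcaTGCTGCTGCtacTGC
Krtap31-1: acacccTGTTGTTGCaagtctatcTGCTGC
Over the whole coding sequence, 47.5% of the codons of *Krtap8-1* were for glycine or tyrosine, and 26.2% of those of *Krtap1-5*, 27.2% of those of *Krtap9-3* and 25.4% of those of *Krtap31-1* were for cysteine. With limits of more than 30% cysteine codons for ultrahigh-sulfur, applied first, and then at least 35% glycine or tyrosine codons for high glycine-tyrosine, 46 of the 51 members that had a row and a class by number fell into the same class by composition. The others were *Krtap1-3* and *Krtap10-4*, with 30.6% and 30.3% cysteine codons, *Krtap9-3*, *Krtap7-1*, with 29.9% glycine or tyrosine codons, and *Krtap16-3*, numbered with a high-sulfur subfamily but with 59.3% glycine or tyrosine codons. *Krtap31-1* and *Krtap31-2* were high-sulfur by composition.

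Total counts per library ranged from 11225705 to 19505036, and the TMM factors from 0.938 to 1.05. TG2 had the lowest sum of the *Krtap* genes and of each of the 4 lists of hair genes described here, although its depth, 17022664 counts, was within the range of the others, and the tests are therefore given with and without it. WT1 also had the lowest level of the wild type libraries in all 53 members with a row. The labels do not give the stage of the hair cycle in each biopsy, and its part in these levels was not tested. In bulk skin, fewer cells of a type and less RNA per cell cannot be told apart.

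The *Krtap* genes were lower in every YAP2-5SA-∆C library than in every wild type library, and most of all in TG2. The summed level of the 53 members with a row was 5561, 10644 and 9108 CPM in wild type and 2337, 147 and 3150.2 CPM in YAP2-5SA-∆C skin. The lowest wild type library, WT1, lay above the highest transgenic library, TG3, and TG2 lay far below TG1 and TG3. Of the wild type mean, 27.7%, 1.74% and 37.3% was left in TG1, TG2 and TG3. As shares of all counts of a library, the members took 0.580%, 1.04% and 0.853% in wild type and 0.240%, 0.0147% and 0.317% in YAP2-5SA-∆C skin. The log2 ratio of the mean sums was -2.17 with all libraries and -1.62 without TG2.

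**Figure D1:**
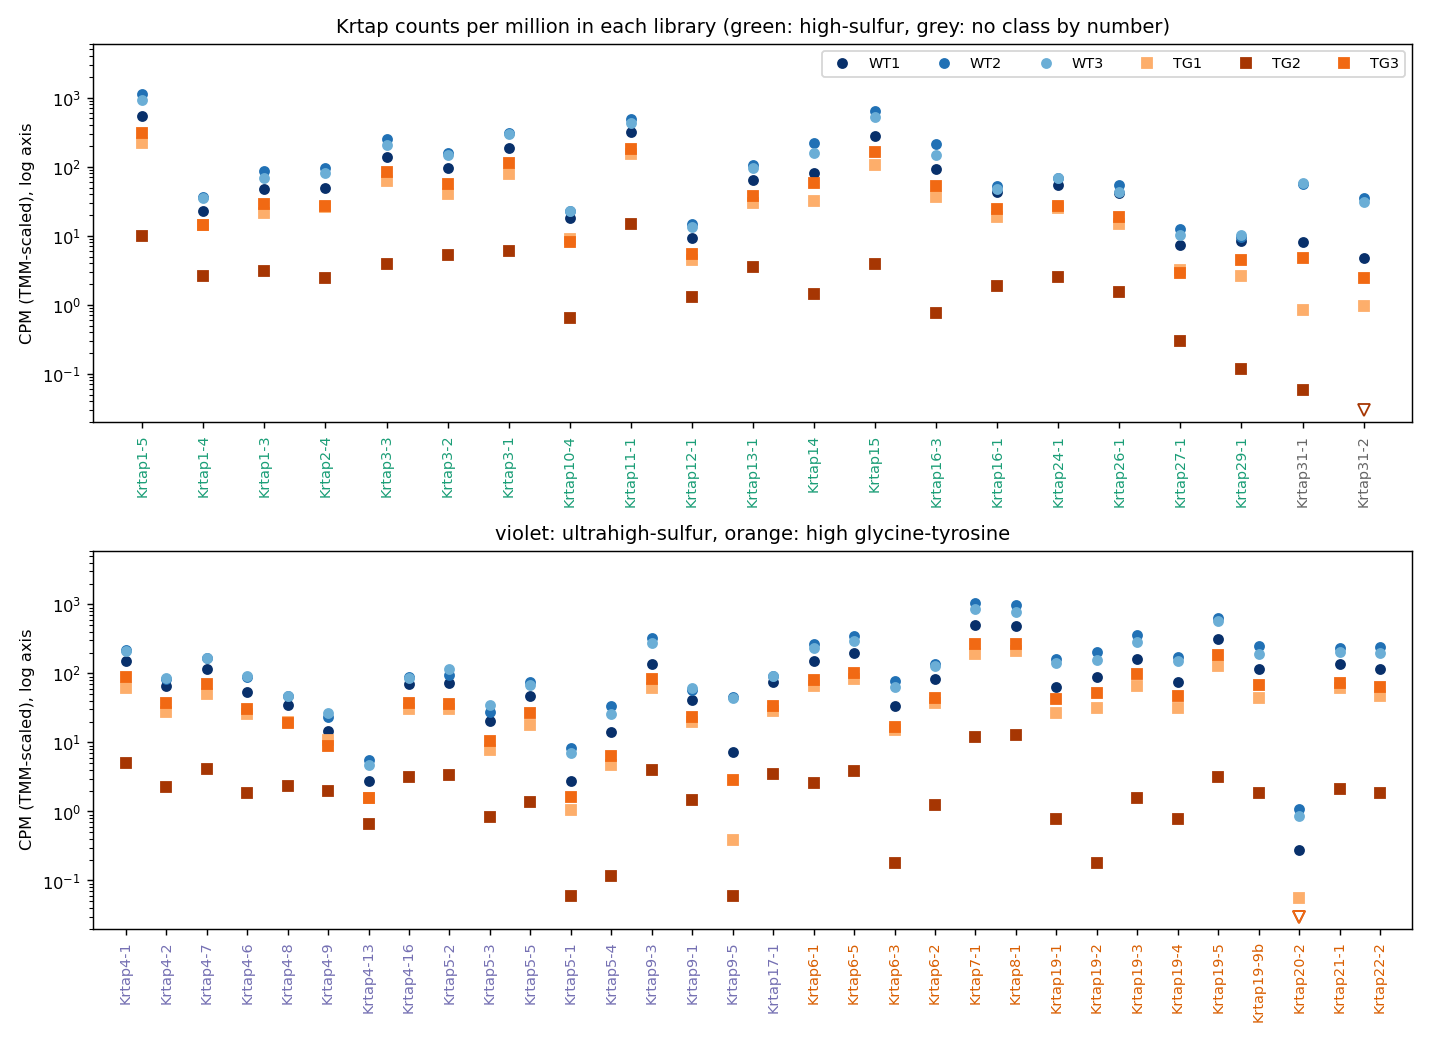
CPM of each of the 53 Krtap genes with a row, on a log axis, in WT1 to WT3 (blue circles) and TG1 to TG3 (orange to brown squares), with gene names coloured by class and open triangles for libraries with 0 counts. In every gene the 3 wild type points lie above the 3 transgenic points, and TG2 lies below TG1 and TG3 in 52 of the 53 genes.

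In all 53 members with a row, every transgenic library lay below every wild type library, against 18.2% of the 15102 genes tested. TG2 was the lowest library in 52 of them, the exception being *Krtap20-2*, which had no counts in TG2 and TG3, and TG1 lay below TG3 in 48. Over the 53 members, the median share of the wild type mean left was 29.9% in TG1, 1.97% in TG2 and 37.9% in TG3, against medians of 99.2%, 98.9% and 98.2% over all genes tested. Of the 106 tested genes that kept under 5% of their wild type mean in TG2, 47 were members.

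Even so, none of the 52 tested members passed the threshold with all 6 libraries. In edgeR's quasi-likelihood test with Benjamini-Hochberg adjustment over all genes tested (FDR, threshold 0.05), 0 members were lower, against 0.464% of all genes, and 0 were higher, against 1.44%. Their FDR ran from 0.0596 to 0.246, and 31 had an unadjusted p below 0.05. Of all genes tested, 13% had such a p and a lower level, and 26.3% had such a p in either direction. These percentages are the background for each such count of this same fit given further on. Their log2 fold changes had a median of -2.07, against -0.01 over all genes tested, and ran from -4.88 to -1.55. Without TG2, 44 members were lower, against 2.74% of all genes tested then, 0 were higher, against 2.73%, and the median was -1.50. These shares of all genes are the background for each count of calls in the same fits given further on. The other 8 (*Krtap4-9*, *Krtap4-13*, *Krtap5-1*, *Krtap9-5*, *Krtap14*, *Krtap19-1*, *Krtap31-1* and *Krtap31-2*) had an FDR of 0.0553 (*Krtap19-1*) to 0.0783 (*Krtap31-1*). The call thus depended on TG2, and on the tool: with all libraries, edgeR's likelihood-ratio test called 51 members lower (4.87% of all genes), DESeq2 4 (4.18%) and voom 0 (0.417%), with 50 members at an unadjusted p below 0.05 in voom, against 13.4% of all genes in the lower direction. With no filter on low counts, the quasi-likelihood test called 3 members (0.467%). Without TG2, in fits added after the data were seen, the likelihood-ratio test called 52 members lower (3.64%), voom 33 (2.26%) and DESeq2 52 (3.91%). The filter asked for 1 CPM in 3 libraries, and 37 of the 52 tested members reached it in all 3 transgenic libraries. The other 15 were under 1 CPM in TG2 and could pass only with the help of wild type libraries, although each reached 1 CPM in TG1 or TG3. Of the 44 members called without TG2, 35 were among the 37 and 9 among these 15.

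The high-sulfur members include the proteins of subfamilies 1, 2 and 3 of the hair cortex. The 19 with a row summed to 2103, 3972 and 3336 CPM in wild type and 894, 66.1 and 1218 CPM in YAP2-5SA-∆C skin, which left 28.5%, 2.11% and 38.8% of the wild type mean. All of them were lower in each transgenic library than in each wild type library, 0 were called with all libraries by edgeR's quasi-likelihood test and 18 without TG2 (2.74% of all genes), the exception being *Krtap14*. *Krtap1-5*, which had the most counts of all members over the 6 libraries together, though not in TG2, had 546, 1121 and 935 CPM in wild type and 219, 10.1 and 312 CPM in YAP2-5SA-∆C skin. WT1 was the lowest of the wild type libraries and TG3 the highest of the transgenic ones, without overlap. Its log2 fold change was -2.26 (standard error 0.98, FDR = 0.198) in edgeR's quasi-likelihood test with all libraries and -1.69 (standard error 0.31, FDR = 0.0309) without TG2.

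In the other high-sulfur subfamilies TG2 was again the lowest library. *Krtap3-1* had 188, 304 and 294 CPM in wild type and 77.5, 6.06 and 113 CPM in YAP2-5SA-∆C skin. *Krtap2-4* had 48.98, 97.1 and 82.3 CPM against 26.4, 2.47 and 26.7 CPM. *Krtap11-1*, the only member of its subfamily, had 315, 498 and 433 CPM in wild type and 151, 14.8 and 182 CPM in YAP2-5SA-∆C skin. Within a subfamily the members kept similar or different shares of the wild type mean. In TG1 the share left in subfamilies 1 and 3 ran from 25.3% (*Krtap1-5*) to 45.9% (*Krtap1-4*, named after its values were seen) and from 29.5% (*Krtap3-1*) to 30.9% (*Krtap3-3*, likewise). *Krtap13-1* had 63.2, 105 and 94.3 CPM against 29.4, 3.53 and 37.3 CPM. *Krtap24-1* had 53.7, 69.2 and 67.8 CPM against 25.4, 2.53 and 26.9 CPM. *Krtap24-1* overlaps the exons of a long non-coding RNA gene on the other strand, and whether the counting used the strand was not stated in the sources used here.

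*Krtap15* and *Krtap14*, neighbours in number, and *Krtap16-3* kept less in TG2 than the rest of the class. *Krtap15* had 283, 652 and 524 CPM in wild type and 106, 3.88 and 164 CPM in YAP2-5SA-∆C skin, and 0.799% of the wild type mean was left in TG2. *Krtap14* had 82.02, 217 and 157 CPM against 31.6, 1.41 and 57.2 CPM, with 0.929% left in TG2. *Krtap16-3* had 92.4, 212 and 147 CPM against 36.4, 0.765 and 53.1 CPM, with 0.509% left there. *Krtap15* shares exon bases with a long non-coding RNA gene on its own strand, so that part of its reads may have been left out by the counting. At the other end, *Krtap12-1* had 9.13, 15.02 and 13.3 CPM in wild type and 4.39, 1.29 and 5.43 CPM in YAP2-5SA-∆C skin and kept 10.4% in TG2, from 22 counts. *Krtap26-1* had 41.2, 54.7 and 43.4 CPM against 14.8, 1.53 and 18.6 CPM. The remaining members named by rule had low counts in TG2. *Krtap10-4* had 18.4, 23.1 and 22.5 CPM against 9.07, 0.647 and 8.24 CPM. *Krtap27-1* had 7.37, 12.5 and 10.1 CPM against 3.17, 0.294 and 2.93 CPM. *Krtap29-1* had 8.47, 9.63 and 10.4 CPM against 2.61, 0.118 and 4.43 CPM. *Krtap29-1* had 2 counts in TG2 and *Krtap27-1* had 5, so that their levels there rest on few reads.

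The ultrahigh-sulfur members, whose cysteine-rich proteins are found in the cuticle and the cortex, summed to 918, 1472 and 1441 CPM in wild type and 401, 36.1 and 520.5 CPM in YAP2-5SA-∆C skin. This left 31.4%, 2.82% and 40.8% of the wild type mean, and all 17 members were lower in each transgenic library than in each wild type library. By edgeR's quasi-likelihood test, 0 were called with all libraries and 13 without TG2 (2.74% of all genes). *Krtap4-1* had 150.3, 215 and 209 CPM in wild type and 61.3, 5.06 and 89.7 CPM in YAP2-5SA-∆C skin, with a log2 fold change of -1.88 (standard error 0.82, FDR = 0.199) in the same test with all libraries and -1.33 (standard error 0.21, FDR = 0.0215) without TG2. *Krtap4-13* had the lowest FDR of the members in edgeR's quasi-likelihood test with all libraries, with a log2 fold change of -1.77 (standard error 0.39, FDR = 0.0596), and of -1.45 (standard error 0.34, FDR = 0.0588) without TG2. Its level was low, 2.75, 5.55 and 4.66 CPM in wild type and 1.56, 0.647 and 1.56 CPM in YAP2-5SA-∆C skin, and the TG2 value rests on 11 counts. Of the 75-base words of its transcripts, 70.9% occur also in the predicted gene *Gm11554*, so that a single read of such a word matches both genes. The reads were paired, and whether the other read of a pair told the genes apart was not examined.

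In subfamily 5, *Krtap5-2* had 72.3, 94.3 and 116 CPM in wild type and 30.8, 3.35 and 35.7 CPM in YAP2-5SA-∆C skin. *Krtap5-3* had 20.3, 27.3 and 35.1 CPM against 7.68, 0.824 and 10.5 CPM. In both genes WT3 was the highest library, WT1 the lowest wild type library and TG2 the lowest of all. *Krtap5-4* had 14.02, 34.02 and 25.9 CPM against 4.73, 0.118 and 6.37 CPM. *Krtap5-1* had 2.803, 8.43 and 7.04 CPM against 1.06, 0.0588 and 1.62 CPM. In these genes WT2 was the highest library, and WT1 and TG2 kept their places. *Krtap5-4* and *Krtap5-1* had 2 counts and 1 count in TG2. *Krtap17-1*, the only member of its subfamily, had 74.1, 91.3 and 90.2 CPM in wild type and 28.5, 3.53 and 34.2 CPM in YAP2-5SA-∆C skin. In subfamily 9, *Krtap9-3* had 135, 322 and 277 CPM against 61.5, 3.94 and 84.3 CPM, and *Krtap9-5* is described with its neighbours further on.

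The high glycine-tyrosine members, whose small proteins fill the matrix of cortical cells, took the largest share of the *Krtap* counts in every wild type library and summed to 2527, 5107 and 4241 CPM in wild type and 1039.7, 44.9 and 1404 CPM in YAP2-5SA-∆C skin. Of the wild type mean, 26.3%, 1.13% and 35.5% was left. All 15 members with a row were lower in each transgenic library than in each wild type library. With all libraries, 0 were called by edgeR's quasi-likelihood test, and 3 of the 14 tested had an unadjusted p below 0.05, which is near the background given above. Without TG2, 13 of the 14 tested were called, the other being *Krtap19-1*. *Krtap8-1* had 482, 988 and 777 CPM in wild type and 214, 12.7 and 266 CPM in YAP2-5SA-∆C skin, and per kb of exon its mean wild type level was 1305 CPM, the highest of the members. *Krtap7-1* followed with 1291 CPM per kb and had 508, 1038 and 858 CPM against 191, 12.1 and 269 CPM before division by length. Their log2 fold changes were -2.19 (standard error 0.90, FDR = 0.181) and -2.35 (standard error 0.92, FDR = 0.161) by edgeR's quasi-likelihood test with all libraries, and -1.63 (standard error 0.29, FDR = 0.02799) and -1.79 (standard error 0.31, FDR = 0.0263) without TG2.

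Subfamily 19, with 6 members, took the most counts of the class in each library but TG2, where *Krtap7-1* and *Krtap8-1* each took more, and summed to 816, 1779 and 1489 CPM in wild type and 327, 8.296 and 490.1 CPM in YAP2-5SA-∆C skin. *Krtap19-5* alone had 312, 632 and 568 CPM against 128, 3.18 and 183 CPM, with a log2 fold change of -2.27 (standard error 1.09, FDR = 0.235) by edgeR's quasi-likelihood test with all libraries. *Krtap19-2*, named after its values were seen, had 3 counts in TG2, against 1610 to 3882 counts in wild type. Members of the other subfamilies of the class also had their lowest value in TG2. *Krtap6-5* had 196, 345 and 292 CPM against 82.2, 3.82 and 101 CPM. *Krtap21-1* had 138, 234 and 204 CPM against 60.6, 2.12 and 73.6 CPM. *Krtap22-2* had 116, 238 and 199.6 CPM against 47.7, 1.82 and 64.1 CPM. In each of these genes the transgenic values did not overlap the wild type values. *Krtap20-2* did not pass the filter on low counts, with 5, 21 and 9 counts in wild type and 1, 0 and 0 counts in YAP2-5SA-∆C skin.

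The makeup of the *Krtap* counts was nearly the same in 5 of the libraries and differed in TG2. The high glycine-tyrosine class took 45.4, 47.98 and 46.6% in wild type and 44.5, 30.5 and 44.6% in YAP2-5SA-∆C skin. The ultrahigh-sulfur class took 16.5, 13.8 and 15.8% in wild type and 17.2, 24.5 and 16.5% in YAP2-5SA-∆C skin, and the high-sulfur class took 37.8, 37.3 and 36.6% in wild type and 38.3, 44.9 and 38.7% in YAP2-5SA-∆C skin. TG1 and TG3 lay within about 1 percentage point of the wild type range in each of these classes, whereas in TG2 the high glycine-tyrosine share was the lowest and both sulfur-rich shares were the highest of the 6 libraries. Since TG2 is 1 library, this difference has no replicate. The TG2 shares rest on 2501 counts, with exact (Clopper-Pearson) 95% intervals of 28.7% to 32.4% for the high glycine-tyrosine, 22.8% to 26.2% for the ultrahigh-sulfur and 42.98% to 46.9% for the high-sulfur class, which cover counting error only.

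**Figure D2:**
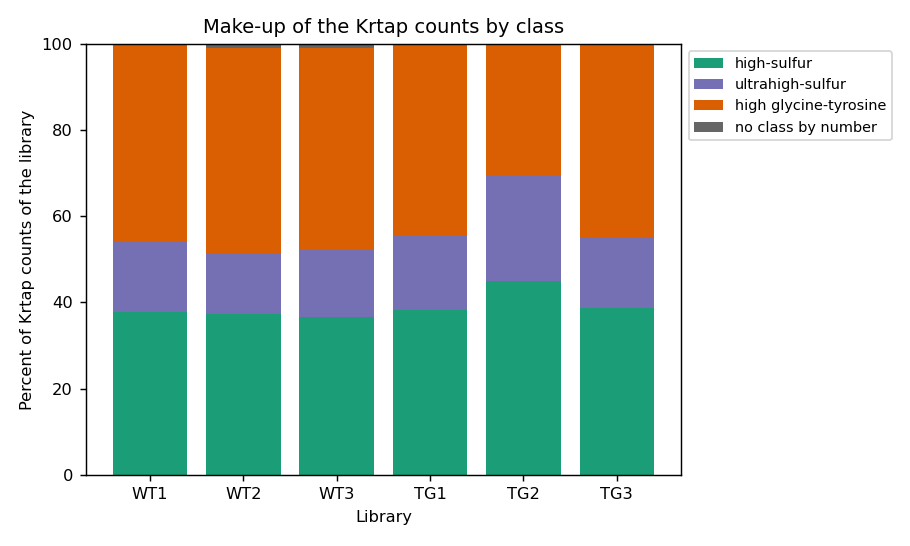
Percent of the Krtap counts of each library that fell on the high-sulfur, ultrahigh-sulfur and high glycine-tyrosine classes and on Krtap31-1 and Krtap31-2 (no class by number). The high glycine-tyrosine part is 44.5% to 48.0% in 5 libraries and 30.5% in TG2.

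By subfamily, the largest loss of share in TG2 was that of subfamily 19, which took 14.7, 16.7 and 16.3% in wild type and 14.01, 5.64 and 15.6% in YAP2-5SA-∆C skin. Subfamily 4 moved the other way, with 9.07, 6.74 and 7.87% in wild type and 9.78, 14.5 and 9.36% in YAP2-5SA-∆C skin, as did *Krtap11-1*, with 5.67, 4.68 and 4.76% in wild type and 6.48, 10.04 and 5.77% in YAP2-5SA-∆C skin. The loss of share was not common to the whole high glycine-tyrosine class. *Krtap7-1* and *Krtap8-1* took 8.24% and 8.64% in TG2, against 8.16% to 9.75% and 8.44% to 9.28% in the other libraries. They kept 1.51% and 1.70% of the wild type mean in TG2, against 1.16% in the high-sulfur *Krtap1-5*. By level, 14 of the 15 high glycine-tyrosine members with a row kept under 2% of their wild type mean in TG2 (*Krtap20-2*, with 0 counts there, may have kept up to 23.7%), against 6 of 19 high-sulfur and 4 of 17 ultrahigh-sulfur members. The median left in TG2 was 0.982%, 3.25% and 2.77% for these classes (0.988% for the first with 0 counts in TG2 taken as 3 counts), 25.4%, 31.9% and 33.5% in TG1, and 35.5%, 42.3% and 40.1% in TG3. With classes set by codon composition, which moves the 5 genes named above and counts *Krtap31-1* and *Krtap31-2* as high-sulfur, the medians in TG2 were 0.630% in the high glycine-tyrosine, 2.63% in the high-sulfur and 2.97% in the ultrahigh-sulfur class. In WT1, the wild type library with the lowest levels, the ratio to the mean of WT2 and WT3 had a median of 0.524 in the high glycine-tyrosine class, 0.634 in the high-sulfur class and 0.651 in the ultrahigh-sulfur class. The high glycine-tyrosine class was thus lowest in WT1 as in each transgenic library. The order of the sulfur-rich classes depended on the measure. By medians of classes by number, high-sulfur was the lower in WT1 and TG1 and the higher in TG2 and TG3. By composition it was the lower in TG2 too, and the higher in TG3 (41.1% against 40.5%). By class sums it was the lower in each transgenic library (28.5%, 2.11% and 38.8% against 31.4%, 2.82% and 40.8%). Over the 37 members with at least 90% of their 75-base words found in no other gene's transcripts, the medians left were 29.5%, 1.70% and 38.2% in TG1, TG2 and TG3, and over the other 16 members they were 30.3%, 2.05% and 36.7%.

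**Figure D3:**
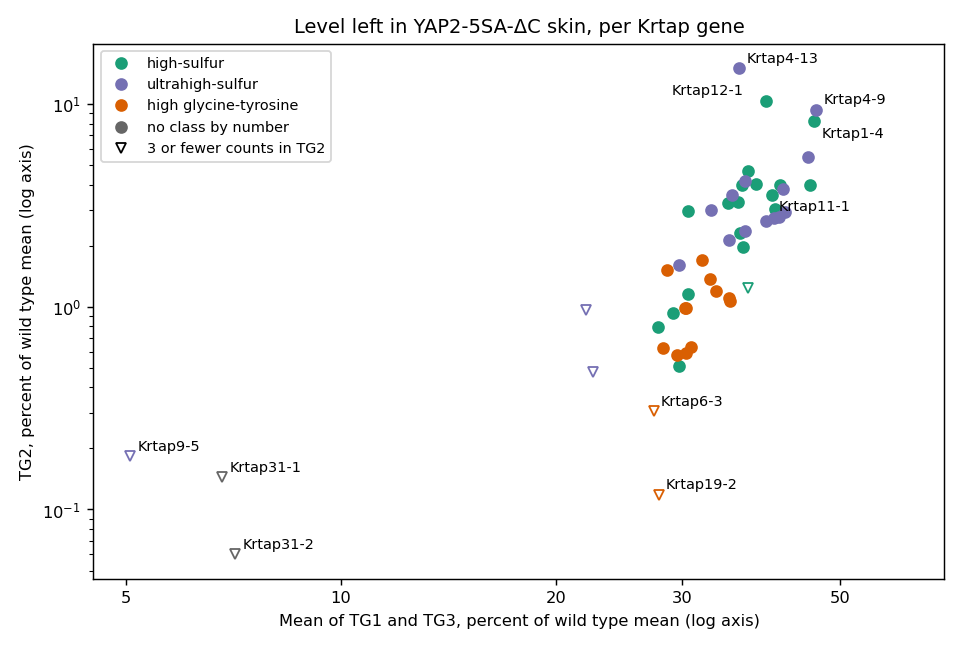
Level left in TG2 against the mean level left in TG1 and TG3, each as a percent of the wild type mean on log axes, for the 52 tested Krtap genes coloured by class. Open triangles mark 3 or fewer counts in TG2, and Krtap31-2, with 0 counts there, is drawn at the lower edge. Krtap9-5, Krtap31-1 and Krtap31-2 lie far to the left of the other genes.

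*Krtap31-1* (chr11:99907920-99908892), *Krtap31-2* (chr11:99936291-99937225) and *Krtap9-5* (chr11:99948475-99949551), which follow each other among the members on the plus strand of chromosome 11 in GRCm38, had a lower level in WT1 relative to WT2 and WT3 than all other members. Genes with other symbols that may lie between them were not examined. They were grouped after their values were seen. *Krtap31-1* had 8.14, 56.8 and 57.7 CPM in wild type and 0.834, 0.0588 and 4.74 CPM in YAP2-5SA-∆C skin. *Krtap31-2* had 4.84, 35.1 and 31.3 CPM in wild type and 0.946, 0 and 2.43 CPM in YAP2-5SA-∆C skin. *Krtap9-5* had 7.31, 44.95 and 44.2 CPM in wild type and 0.389, 0.0588 and 2.87 CPM in YAP2-5SA-∆C skin. In each of them WT1 was far below WT2 and WT3 and nearer to TG3 than to them, while no transgenic library overlapped the wild type ones. The 0 counts of *Krtap31-2* in TG2 allow up to 3 counts, or 0.177 CPM, and the other genes had 1 count each there.

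The log2 fold changes of these genes were the lowest of the members, at -4.46 (standard error 1.16, FDR = 0.0758) for *Krtap31-1*, -4.40 (standard error 1.07, FDR = 0.0666) for *Krtap31-2* and -4.88 (standard error 1.10, FDR = 0.0618) for *Krtap9-5* in edgeR's quasi-likelihood test with all libraries. Without TG2 they were -3.87 (standard error 1.02, FDR = 0.0783), -3.81 (standard error 0.92, FDR = 0.0642) and -4.31 (standard error 1.02, FDR = 0.06002), none past the threshold. The WT1 level was 0.142 to 0.164 times the mean of WT2 and WT3 in them, against 0.281 to 0.847 in the other 50 members with a row and a median of 1.01 over all genes tested. Of all 15102 genes tested, 16, these 3 included, had a ratio as low as theirs. In TG1, 2.04%, 3.98% and 1.21% of the wild type mean was left. The *Krtap* genes on either side with a row, *Krtap9-1* (named after its values were seen) and *Krtap29-1*, kept 37.8% and 27.6% there, with WT1 ratios of 0.708 and 0.847.

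**Figure D4:**
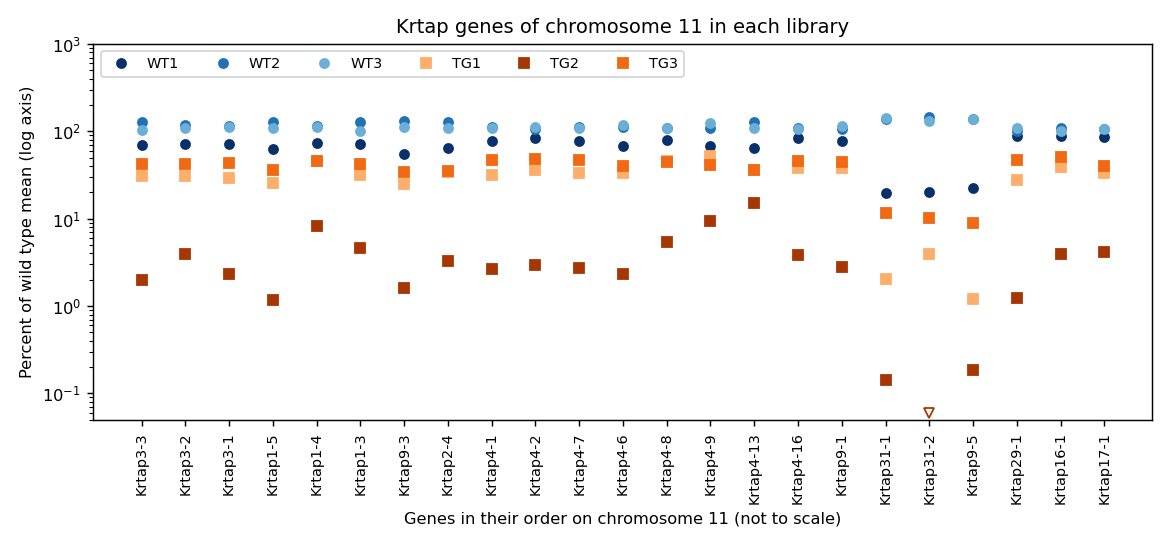
Level of each Krtap gene of chromosome 11 in each library, as a percent of its wild type mean on a log axis, with the genes in chromosomal order (not to scale) and an open triangle for 0 counts. Krtap31-1, Krtap31-2 and Krtap9-5 stand out from their neighbours by lower values in WT1, TG1, TG2 and TG3.

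Their promoters are shown because these neighbours shared their pattern over the libraries. RefSeq promoters (GRCm38.p6, 250 bases before to 50 bases after the start) were matched for 51 members. The 30 bases around the TATA box (TATAAA, in capitals) are given for the gene strand, 5′ to 3′, for *Krtap31-1* (chr11:99907878-99907907, plus strand), *Krtap31-2* (chr11:99936249-99936278, plus strand) and *Krtap9-5* (chr11:99948382-99948411, plus strand), and, for comparison, for *Krtap1-5* (chr11:99581030-99581059, minus strand), *Krtap8-1* (chr16:89487964-89487993, minus strand) and *Krtap11-1* (chr16:89571194-89571223, minus strand).
Krtap31-1: ggaggcctgttgTATAAAaggccctgactg
Krtap31-2: ggaggcctgttgTATAAAaggccctgactg
Krtap9-5: ggaggtctggcaTATAAAatggccagaatg
Krtap1-5: cttgcttgactaTATAAAaggccccatgct
Krtap8-1: ccagtcggggtaTATAAAgatggtctgaga
Krtap11-1: tgagcaaggataTATAAAaagcccagggtc
The windows of *Krtap31-1* and *Krtap31-2* were identical. Such identity was not particular to them. The windows of *Krtap4-6* and *Krtap4-9*, named after their values were seen, were also identical to each other. The WT1 level of *Krtap4-6* and *Krtap4-9* was 0.594 and 0.583 times the mean of WT2 and WT3. Compared base by base without gaps, the promoters of 300 bases of *Krtap31-1* and *Krtap31-2* were 82.3% identical, and *Krtap9-5* was 41.3% and 43.7% identical to them, against a median of 27.3% over the 1275 pairs of member promoters. In the 50 bases before the start, the identity was 100% between *Krtap31-1* and *Krtap31-2* and 74.0% between either and *Krtap9-5*. These 50 bases hold the TATA box of each of these genes. The median over all pairs was not computed for them, so that these values have no background here. The transcripts of *Krtap31-1* and *Krtap31-2* also shared 34.6% and 36.1% of their 75-base words, so that reads from these words may have been left out or split, whereas those of *Krtap9-5* shared none with another gene.

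On the gene strand between 50 and 11 bases before the start, TATAAA occurred in 34 of the 51 member promoters (66.7%), against 789 of 32851 promoters of all genes (2.40%). CTTTGA, the core of the LEF1/TCF motif, was found on either strand of 29.4% of the member promoters and 16% of all promoters, and GGAATG, the core of the motif of the TEAD factors that bind YAP, in 15.7% and 14.7%. These are matches of letters and not binding sites.

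Sums of other hair follicle gene lists were lower in YAP2-5SA-∆C skin as well, by different amounts. The 15 hair keratin genes with a row, which encode the filaments that the keratin-associated proteins embed, summed to 3653, 6540.3 and 5572 CPM in wild type and 1662, 169.7 and 2022 CPM in YAP2-5SA-∆C skin, with 31.6%, 3.23% and 38.5% of the wild type mean left. None was called with all libraries by edgeR's quasi-likelihood test, with all 15 at an unadjusted p below 0.05, and 14 were called lower without TG2 (2.74% of all genes). *Krt33a*, which had the highest mean CPM of the list, had 627, 1157 and 989.6 CPM against 281, 24.7 and 346 CPM. The number of *Krtap* counts per hair keratin count was 1.52, 1.63 and 1.63 in wild type and 1.41, 0.867 and 1.56 in YAP2-5SA-∆C skin, so that TG1 lay below, TG3 within and TG2 far below the wild type values. The log2 ratio of the mean of this quantity was -0.32 with all libraries and -0.11 without TG2.

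The 10 genes of the inner root sheath, which moulds the growing shaft, and the companion layer summed to 13348, 16311 and 15498 CPM in wild type and 7161, 1526 and 8998 CPM in YAP2-5SA-∆C skin, with 47.6%, 10.1% and 59.8% left. None was called with all libraries by edgeR's quasi-likelihood test, with 9 at an unadjusted p below 0.05, and 9 were called lower without TG2. *Krt71*, a keratin of the inner root sheath, had 3549, 4254 and 4181 CPM against 1982, 378 and 2281 CPM, and *Tchh*, the matrix protein trichohyalin, had 3761, 4402 and 3985 CPM against 1828, 431 and 2905 CPM. There were 0.417, 0.653 and 0.588 *Krtap* counts per count of this list in wild type and 0.326, 0.0964 and 0.350 in YAP2-5SA-∆C skin, and the transgenic values did not overlap the wild type ones.

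The regulators of hair shaft differentiation kept, at the median of the 10 listed, 64.4%, 33.1% and 68.6% of the wild type mean in TG1, TG2 and TG3, against 34.2%, 3.91% and 39.9% for the hair keratins. Of 10 listed, 0 were called with all libraries by edgeR's quasi-likelihood test, with 9 at an unadjusted p below 0.05, and 6 were called lower without TG2 (*Hoxc13*, *Foxn1*, *Msx2*, *Lef1*, *Dlx3* and *Msx1*). *Hoxc13*, a transcription factor needed for a normal hair shaft, had 43.6, 41.1 and 47.6 CPM in wild type and 24.4, 9.88 and 27.9 CPM in YAP2-5SA-∆C skin. *Foxn1*, another such factor, had 29.5, 38.05 and 41.8 CPM against 18.5, 10.8 and 21.2 CPM. *Dlx3* had 123, 131 and 141 CPM against 89.7, 49.2 and 98.2 CPM. *Gata3*, a factor of the inner root sheath that is also expressed in the epidermis, had 106, 92.5 and 111 CPM against 107, 145 and 109.6 CPM and did not pass the threshold in either fit. The list summed to 639, 673 and 715 CPM in wild type and 494, 398 and 527 CPM in YAP2-5SA-∆C skin, with 73.2%, 58.8% and 77.95% left. Of 10 genes of crosslinking and adhesion of the shaft, 0 were called with all libraries by edgeR's quasi-likelihood test, with 8 at an unadjusted p below 0.05, and 5 were called lower without TG2. This list summed to 1286, 1692 and 1584 CPM in wild type and 725, 254 and 798 CPM in YAP2-5SA-∆C skin. *S100a3*, a calcium-binding protein of the hair cuticle, had the highest mean CPM of the list, with 420.4, 529 and 507 CPM against 206, 31.1 and 203 CPM, and *Tgm1*, a transglutaminase that is also used in the epidermis and was named after its values were seen, had 112, 104 and 119 CPM against 105, 117 and 104 CPM.

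**Figure D5:**
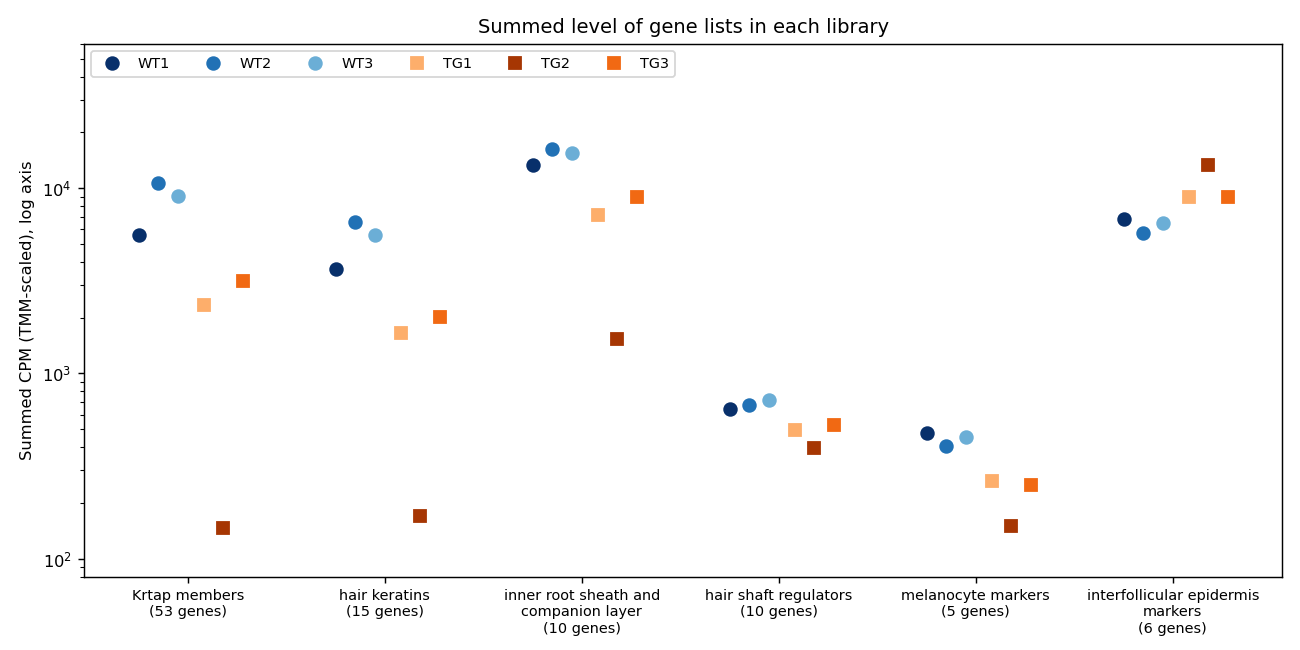
Summed CPM of the Krtap genes, 3 lists of hair follicle genes, and markers of melanocytes and of the interfollicular epidermis in each library, on a log axis (circles for wild type, squares for YAP2-5SA-∆C). TG2 lies far below TG1 and TG3 in the Krtap sum (147 against 2337 and 3150.2 CPM) and the hair keratin sum (169.7 against 1662 and 2022 CPM), whereas the epidermal markers are highest in TG2.

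Markers of some other cell types also differed between the genotypes. The 6 interfollicular epidermis markers with a row of 7 listed summed to 5739 to 6807 CPM in wild type and 8956 to 13411 CPM in YAP2-5SA-∆C skin, highest in TG2, and 1 of them, the basal keratin *Krt14*, was called higher by edgeR's quasi-likelihood test with all libraries, with 1668, 1648 and 1629 CPM in wild type and 2845, 3407 and 3310.2 CPM in YAP2-5SA-∆C skin. The 5 melanocyte markers summed to 408 to 478 CPM and to 151 to 261 CPM, lowest in TG2, with *Tyrp1* and *Dct*, enzymes of pigment synthesis, called lower. *Tyrp1* had 128, 121 and 131 CPM against 67.8, 37.2 and 64.5 CPM. The 5 macrophage markers summed to 159 to 186 CPM and to 254 to 259 CPM, with *Csf1r* and *Ctss* called higher. Of the 5 sebaceous gland, 6 fibroblast, 5 adipocyte and 5 skeletal muscle markers, 0 were called with all libraries by this test, with 3, 3, 0 and 0 at an unadjusted p below 0.05 (26.3% of all genes in either direction). The sums ran from 2516 to 3202 CPM and from 3607 to 5387 CPM for the sebaceous gland, from 9449 to 12801 CPM and from 12256 to 15936 CPM for fibroblasts, and from 622 to 869 CPM and from 544 to 901 CPM for adipocytes. The sebaceous gland sum was mostly 1 gene, which held 86019 of the 88762 counts of the list in TG2. The log2 fold changes of the 5 markers of that list ran from -0.24 to 1.21 with all libraries. The skeletal muscle sum was 1096, 5871 and 4739 CPM in wild type, lowest in WT1 as for the *Krtap* genes, and 2781, 1586 and 987 CPM in YAP2-5SA-∆C skin. Without TG2, 5 melanocyte markers were called lower, and 2 epidermal, 3 macrophage and 1 sebaceous gland marker higher, by the same test, against 2.74% lower and 2.73% higher of all genes. No marker with a row was at 0 in any library. The part of these cell types in the *Krtap* levels was not tested.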

How the data were processed

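RNA-Seq counts of 6 libraries were analysed. Per the sources, the authors mapped reads to GRCm38 with TopHat2 (version 2.0.12 in the submitters' processing notes, while the study's methods name another version) and Bowtie2 (version 2.1.0) and counted uniquely mapped reads per Ensembl gene with HTSeq, and deposited raw counts. Reads shared by near-identical genes are therefore missing, and the annotation release and strand setting are not given in the sources used here. Columns were matched to samples by name.

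Genes were kept where 3 or more libraries had 1 CPM or more, and scaled with TMM. The main test was edgeR 4.0.16 quasi-likelihood (glmQLFit, glmQLFTest; R 4.3.3), with genotype as the only term and Benjamini-Hochberg adjustment at 0.05, and was tested on simulated data. Alternatives were edgeR's likelihood-ratio test, voom (limma 3.58.1), DESeq2 1.42.0, RLE and upper-quartile scaling, other filters, a block for the replicate number, and the omission of each library in turn. Sums use all members with a row. Gene lists, classes and members were chosen with earlier results of these data known. Members named were the 10 with the lowest p, the highest of each subfamily and, per kb of exon, of each class; of list genes, those called and the highest of each hair list. Others are said to be named after their values were seen, or stand in lists of calls. Codons were read from GENCODE M21 transcripts and protein sequences were not used here. Words of 75 bases were compared among transcripts only, since no genome sequence was used here.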

Additional observations from a re-analysis of the deposited data

How the results depend on the processing

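The number of *Krtap* members called lower was 0 with RLE or upper-quartile scaling, a mean count of at least 10, voom and a replicate block. Of all genes tested, these fits called 80, 77, 72, 63 and 0 lower. It was 3 with no filter (*Krtap4-13*, *Krtap9-5* and *Krtap20-2*), 51 with the likelihood-ratio test and 4 with DESeq2 (*Krtap4-13*, *Krtap9-5*, *Krtap12-1* and *Krtap31-1*). Leaving out 1 library gave 0 to 44 members, 0 to 14 hair keratins, 0 to 9 inner root sheath genes, 0 to 6 regulators and 0 to 5 crosslinking genes, and in each list the number was above 0 only without TG2. Of all genes tested, 409 were lower and 408 higher without TG2, 19 and 123 without WT1, and 10 and 73 without TG1. Without WT2, WT3 or TG3, 0 of all genes were called, so that 0 members in those fits is no result about the members. The cause of the differences between tools was not tested. With the likelihood-ratio test, 15 hair keratins, 9 inner root sheath genes, 7 regulators and 9 crosslinking genes were past the threshold, and with DESeq2 6 regulators and 1 crosslinking gene. Chosen after seeing the data, the likelihood-ratio test, voom and DESeq2 without TG2 called 52, 33 and 52 members, 15, 14 and 14 hair keratins, 10, 9 and 9 inner root sheath genes, 7, 6 and 7 regulators, and 9, 5 and 7 crosslinking genes. By the quasi-likelihood test, 20, 8 and 8 of the 52 tested members had an unadjusted p below 0.05 without WT1, WT2 and WT3. Without TG1, TG2 and TG3 these were 16, 52 and 42. Of the 14914 to 14999 genes tested, 3841, 2726, 2844, 3674, 3105 and 3691 had such a p in these fits, in the same order. The median log2 fold change of the tested members ran from -2.63 to -1.50 on leaving out 1 library, and the *Krtap* sums, in all and by class, and the *Krtap* to hair keratin ratio kept their direction on leaving out any 1 library. The adipocyte marker sum did not: its wild type and transgenic means were 735 and 709.9 CPM, but 668 and 709.9 CPM without WT2, and 735 and 793 CPM without TG1. For the 31 named members, 383 combinations of gene and alternative kept their side of the threshold, 144 passed it and 0 reversed. With the replicate block, 0 members were called, 22 had an unadjusted p below 0.05 and the median was -2.51. In that fit, 0 of all 15102 genes were called in either direction, and 2949 of them had an unadjusted p below 0.05. Same-numbered libraries deviated with correlations of -0.33, -0.23 and -0.05 across 15102 genes, so the numbers were not taken as pairs, and not every library correlated best with its own number. The low *Krtap* counts of TG2, whose total was within the range of the others, limit its values: 9 of 53 members had 3 or fewer counts there.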
